A study of Mus musculus with 40 samples.

Results

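Wild-type PAX5 was set against an empty vector in J558LuM, a mouse plasmacytoma line, that is, a tumour line of antibody-secreting plasma cells. The comparison used 14 of the 40 arrays of the series, 7 from cells transduced with the wild-type PAX5 construct (PAX5-WT) and 7 from cells transduced with the vector alone (MIR), chosen by the group in the array titles. Both groups therefore share the cell line and the transduction and differ in the PAX5 insert, and no other treatment was given. The other 26 arrays carried 4 altered PAX5 constructs. They entered the fit to share its estimates of the spread and of the batch terms, and the choice of 1 probe set per gene. Every array measured total RNA from its own numbered transduction with a biotin-labelled Affymetrix preparation, and all arrays come from 1 cell line. P-values thus describe the spread between transductions of that line. In each group 4 arrays belong to RNA isolation batch 1 and 3 to isolation batch 2, and in each group 4 arrays were on plate 1 and 3 on plate 2. The sources used here do not give whether transduced cells were sorted before RNA extraction. In such bulk RNA fewer cells of a type and less RNA per cell cannot be told apart.

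PAX5 is a transcription factor of B cells. It switches on genes of the B cell receptor, its co-receptors and the signalling chain behind them, and it holds down genes of other blood lineages, partly through Groucho co-repressors. Plasma cells switch PAX5 off when they begin to secrete antibody, and plasmacytoma lines are used as a setting into which the factor can be put back.

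Each array gives 1 log2 signal for each probe set. For a gene described in detail the lowest, the median and the highest of its 7 arrays are given in that order. Differences are PAX5-WT minus MIR on the log2 scale with the standard error from limma (n = 7 and 7). A gene rose or fell where limma's adjusted p was under 0.05 over all 17097 genes. The plasma cell character of the line was present in both groups, with Xbp1, the regulator of the secretory programme, at 13.16 ± 0.07 in PAX5-WT and 13.30 ± 0.07 in MIR (SD) and Irf4, a factor of plasma cells, at 10.78 ± 0.31 in PAX5-WT and 10.86 ± 0.21 in MIR. Of the B cell markers, Cd79b, a chain of the B cell receptor, stood at 10.15 ± 0.10 in PAX5-WT and 10.09 ± 0.07 in MIR. Cd22, an inhibitory co-receptor, stood at 4.07 ± 0.29 in PAX5-WT and 4.03 ± 0.15 in MIR. Sdc1 and Mzb1 had no probe set that was used here.

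Cells with PAX5-WT were set apart from MIR cells by a few large and many small changes. In a principal component analysis of the 14 arrays the first component, with 25.95% of the variance, placed the PAX5-WT arrays between 9.73 and 13.66 and the MIR arrays between -13.83 and -7.56. The second component, with 17.14%, separated the isolation batches. In all 613 genes rose and 486 fell, which is 6.43% of the genes tested, with 3.59% rising and 2.84% falling. Most changes were small. Of the called genes 482 changed less than 1.2-fold, 472 changed 1.2-fold to 1.5-fold, 104 changed 1.5-fold to 2-fold, 31 changed 2-fold to 4-fold and 10 changed 4-fold or more. The 145 genes that changed at least 1.5-fold (0.848% of those tested) comprised 104 that rose and 41 that fell, and in 116 of the 145 the arrays of the groups did not overlap. Over all genes the groups did not overlap in 383, which is 2.24%. The median difference over all genes was 0.01.

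**Figure D1:**
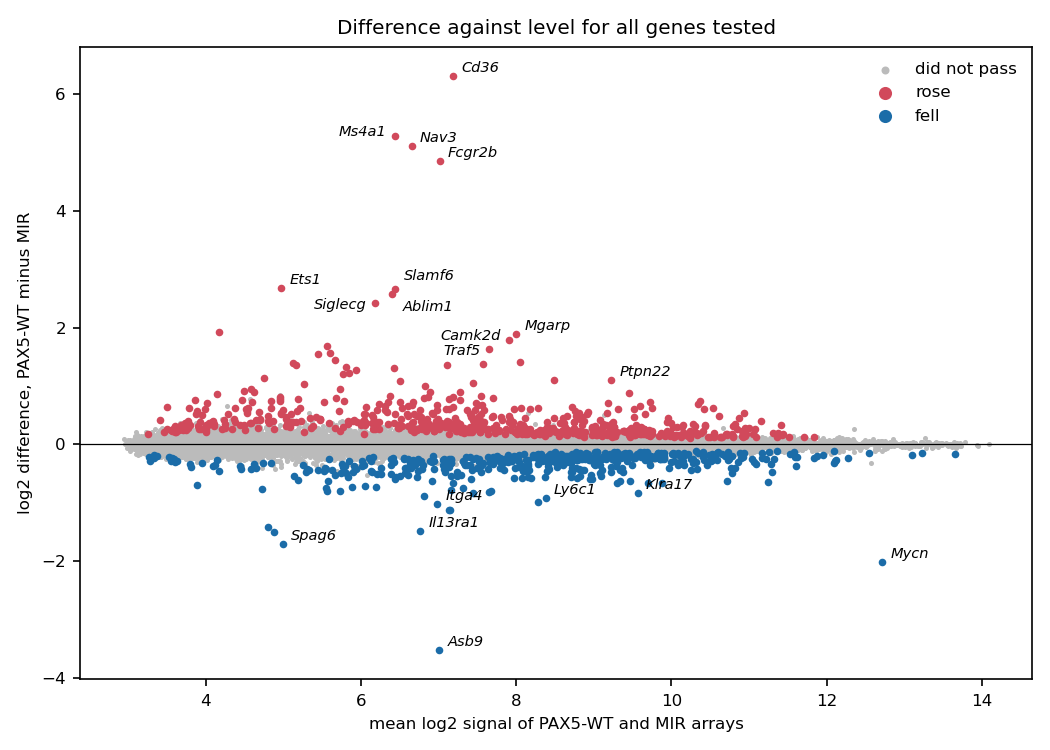
Difference between PAX5-WT and MIR (log2, vertical axis) against the mean log2 signal of the 14 arrays (horizontal axis), 1 point for each of 17097 genes. The 613 genes that rose are red and the 486 that fell are blue; Cd36, Ms4a1, Nav3 and Fcgr2b lie furthest above 0 and Asb9 and Mycn furthest below.

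Called genes lay mostly in the brighter part of the array. Of the 104 genes that rose at least 1.5-fold, 31 had a MIR mean below 4.78, the median level of all genes. Of the 41 genes that fell at least 1.5-fold, 1 had a MIR mean and 5 had a PAX5-WT mean below that level. With the genes ranked by mean signal and cut into 4 equal classes, 0.772%, 1.66%, 10.7% and 12.6% were called, from the dimmest class to the brightest. No detection call was at hand, so a fold from or to a dim level is a fold of signal, which arrays compress near the background.

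The probe set of Pax5 itself gave no call. It lay at 4.36, 4.81 and 5.14 in PAX5-WT arrays, against 4.19, 4.51 and 4.63 in MIR arrays. The ranges overlapped, and the difference of 0.30 ± 0.15 did not pass (adjusted p = 0.296). The sources used here do not give whether its probes lie on the construct, so this probe set does not check the labels. Cd79a, which encodes the signalling chain of the B cell receptor and is a textbook target of PAX5, lay at 4.09, 4.16 and 4.44 in PAX5-WT arrays, against 4.08, 4.21 and 4.30 in MIR arrays. Its groups overlapped throughout, with a difference of 0.01 ± 0.08 (adjusted p = 0.974). Both group means of Cd79a, 4.20 in PAX5-WT and 4.19 in MIR, were below 4.78, the median level of all genes. At so dim a level a small change in Cd79a could be missed. Larger rises from such levels were called in other genes. Of the 104 genes that rose at least 1.5-fold, 31 had a MIR mean below 4.78.

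Of the 4 largest rises 3 were those of surface proteins. Cd36, a scavenger receptor that takes up fatty acids and oxidised lipids, lay at 9.86, 10.37 and 10.65 in PAX5-WT arrays, against 3.56, 3.71 and 5.89 in MIR arrays. All PAX5-WT arrays lay far above all MIR arrays, and MIR replicate 7 stood above the other MIR arrays. The rise of 6.32 ± 0.27 is 79.8-fold (adjusted p = 1.92e-19), and with any 1 array left out it was between 6.22 and 6.61. Ms4a1 encodes CD20, a tetraspanning membrane protein of B cells that takes part in calcium signalling. Its signal was 8.49, 9.23 and 9.73 in PAX5-WT arrays, against 3.23, 3.86 and 4.08 in MIR arrays. The 3 PAX5-WT arrays of isolation batch 2 were the lowest of their group, at 8.49 to 8.52, against 9.23 to 9.73 in isolation batch 1. Ms4a1 rose 39.1-fold (adjusted p = 7.34e-17). Fcgr2b, the inhibitory receptor for IgG on B cells, gave 8.75, 9.60 and 10.13 in PAX5-WT arrays, against 4.12, 4.36 and 5.58 in MIR arrays. Here too isolation batch 2 held the lowest PAX5-WT arrays and MIR replicate 7 the highest MIR value, while the groups stayed apart, with a rise of 28.9-fold (adjusted p = 3.12e-16).

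Nav3, a protein that binds growing microtubule ends and is best known from neurons, lay at 8.43, 8.84 and 10.09 in PAX5-WT arrays, against 3.84, 4.003 and 4.53 in MIR arrays. In this gene the PAX5-WT arrays of isolation batch 2 were the highest, at 9.99 to 10.09, against 8.43 to 8.84 in isolation batch 1, and the rise over both was 34.6-fold (adjusted p = 3.42e-13). Ets1, a transcription factor that restrains the step from B cell to plasma cell, was at 6.01, 6.23 and 6.76 in PAX5-WT arrays, against 3.16, 3.50 and 4.45 in MIR arrays. Its groups were well apart although its MIR arrays spread more widely than its PAX5-WT arrays, and it rose 6.39-fold (adjusted p = 1.05e-12). Ablim1, an actin-binding LIM protein, was at 7.22, 7.66 and 8.13 in PAX5-WT arrays, against 4.86, 5.14 and 5.28 in MIR arrays. It rose 5.96-fold with no overlap (adjusted p = 3.89e-12). Siglecg, a sialic acid-binding receptor that dampens B cell receptor signals, was at 7.02, 7.27 and 7.79 in PAX5-WT arrays, against 4.45, 4.99 and 5.29 in MIR arrays. Its rise was 5.37-fold (adjusted p = 1.71e-12), and its lowest PAX5-WT array lay well above its highest MIR array.

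**Figure D2:**
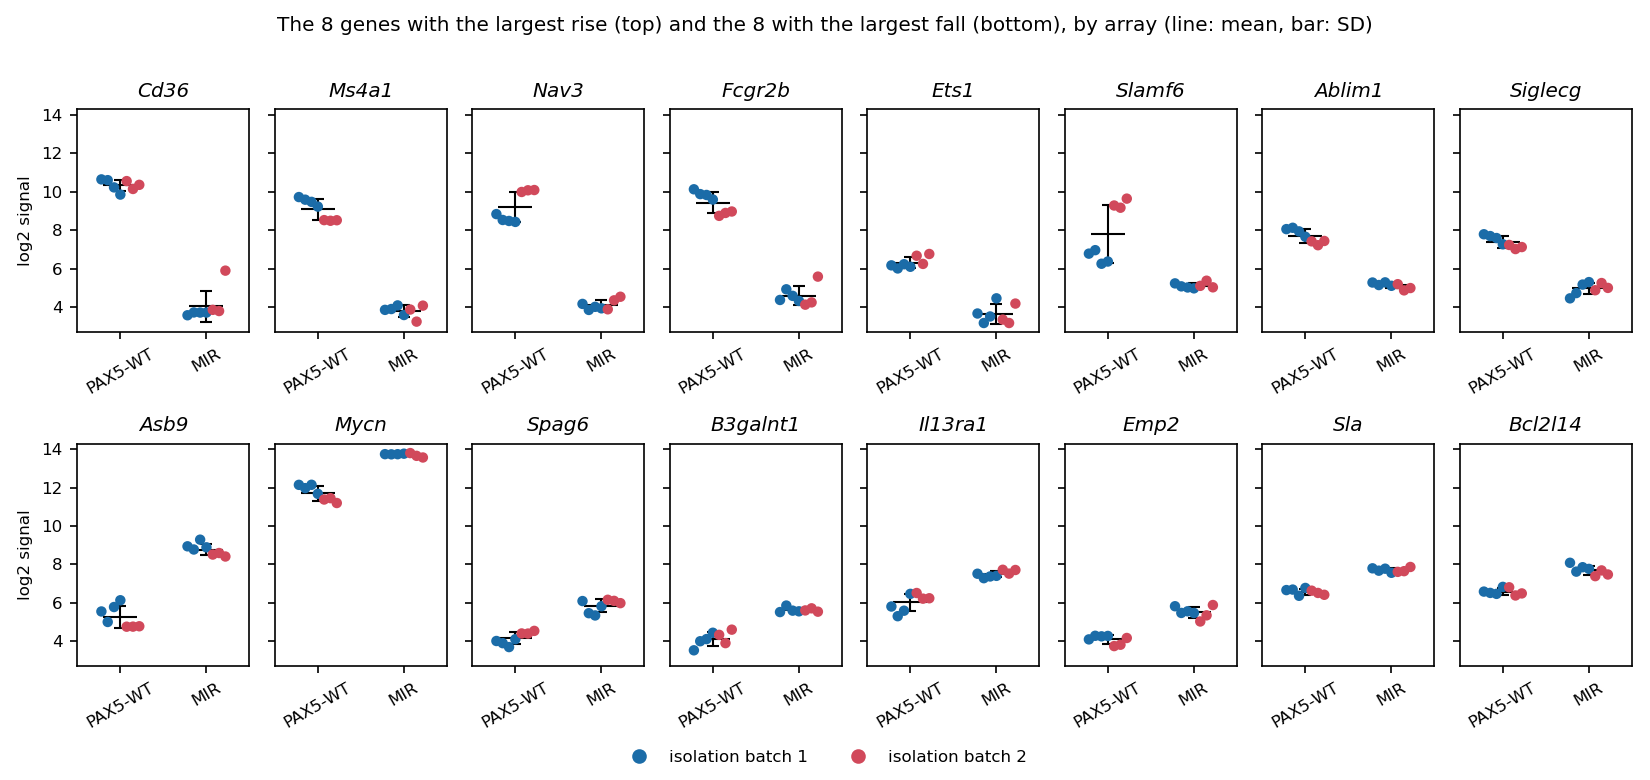
Log2 signal (vertical axis) of the 8 genes with the largest rise and the 8 with the largest fall, 1 point per array, with PAX5-WT left of MIR, the mean as a line and the SD as a bar, and the isolation batch in colour. In all 16 genes the PAX5-WT and MIR arrays do not overlap; Slamf6 and Nav3 are highest in the PAX5-WT arrays of isolation batch 2, and MIR replicate 7 stands at 5.89 in Cd36.

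The next rises included genes of calcium, Ras and TNF receptor signalling. Mgarp, a mitochondrial membrane protein first described in steroid-producing tissue, lay at 8.73, 8.97 and 9.26 in PAX5-WT arrays, against 6.70, 7.11 and 7.24 in MIR arrays, a rise of 1.89 ± 0.09 (adjusted p = 4.72e-18). Traf5, an adaptor of TNF receptors such as CD40, lay at 8.31, 8.38 and 8.66 in PAX5-WT arrays, against 6.29, 6.89 and 7.35 in MIR arrays, and its rise of 1.64 ± 0.07 had the smallest standard error among the 15 largest rises (adjusted p = 2.54e-19). Camk2d, a kinase that responds to calcium and calmodulin, rose by 1.78 ± 0.12. It lay at 8.50, 8.77 and 9.18 in PAX5-WT arrays, against 6.80, 7.01 and 7.21 in MIR arrays, again without overlap. Rasgrf2, an exchange factor that loads Ras with GTP, lay at 5.82, 6.44 and 6.79 in PAX5-WT arrays, against 4.60, 4.72 and 5.22 in MIR arrays and rose by 1.57 ± 0.11. Spib, an ETS factor of B cells, lay at 5.84, 6.49 and 7.15 in PAX5-WT arrays, against 4.36, 4.76 and 5.002 in MIR arrays and rose by 1.68 ± 0.29. The PAX5-WT arrays of Spib covered a wider range than those of Traf5 or Mgarp, and its standard error was larger. P2ry10, a receptor for lysophospholipids, lay at 3.56, 4.55 and 6.83 in PAX5-WT arrays, against 3.04, 3.14 and 3.51 in MIR arrays. Its lowest PAX5-WT array lay just above its highest MIR array, the 3 PAX5-WT arrays of isolation batch 2 were its highest, and its rise was 1.92 ± 0.51 (adjusted p = 0.0155). P2ry10 did not pass without PAX5-WT replicate 5 or 7 (1.64 to 1.68, adjusted p of 0.0503 to 0.0515).

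The largest falls included transcription, adhesion and natural killer receptor genes. Asb9, a SOCS box protein that recruits substrates to a ubiquitin ligase, lay at 4.75, 4.997 and 6.13 in PAX5-WT arrays, against 8.41, 8.78 and 9.29 in MIR arrays. In the PAX5-WT arrays of isolation batch 2 it was lowest, at 4.75 to 4.77, and it fell 11.5-fold (adjusted p = 1.7e-19). Mycn, a MYC family factor that drives growth and proliferation, lay at 11.20, 11.68 and 12.15 in PAX5-WT arrays, against 13.58, 13.75 and 13.81 in MIR arrays. The MIR arrays were tightly grouped and every PAX5-WT array lay more than 1 log2 unit below all of them, a 4.02-fold fall (adjusted p = 8.1e-14). Spag6, a protein of motile cilia, lay at 3.69, 4.10 and 4.53 in PAX5-WT arrays, against 5.34, 5.98 and 6.15 in MIR arrays, and its fall of 1.70 ± 0.17 left no overlap. B3galnt1, a glycosyltransferase that builds globoside, lay at 3.52, 4.10 and 4.60 in PAX5-WT arrays, against 5.51, 5.59 and 5.85 in MIR arrays and fell by 1.5 ± 0.14. Il13ra1, a receptor chain for the cytokines IL-4 and IL-13, lay at 5.30, 6.21 and 6.51 in PAX5-WT arrays, against 7.28, 7.51 and 7.72 in MIR arrays. It fell by 1.49 ± 0.18 (adjusted p = 1.19e-07), with no overlap. Emp2, a tetraspanning membrane protein, fell by 1.42 ± 0.12, and Sla, an adaptor that promotes the loss of antigen receptors from the surface, fell by 1.13 ± 0.09.

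Further down, Bcl2l14, a BCL2 relative, fell by 1.12 ± 0.14. Itga4, the integrin chain with which lymphocytes bind VCAM-1, lay at 6.01, 6.51 and 6.95 in PAX5-WT arrays, against 7.22, 7.55 and 7.65 in MIR arrays and fell by 1.02 ± 0.12 (adjusted p = 1.22e-07). Its groups stayed apart, with the highest PAX5-WT array in isolation batch 1 and the lowest in isolation batch 2. Klrk1, the activating natural killer receptor NKG2D, lay at 7.56, 7.82 and 7.96 in PAX5-WT arrays, against 8.57, 8.80 and 8.94 in MIR arrays and fell by 0.98 ± 0.14 (adjusted p = 4.4e-06). Klra17, a member of the Ly49 receptor family, fell by 0.84 ± 0.13; as Ly49 genes are close copies, its probe set may read several of them. Ly6c1, a surface protein of plasma cells and monocytes, lay at 7.59, 7.89 and 8.17 in PAX5-WT arrays, against 8.65, 8.82 and 9.03 in MIR arrays and fell by 0.92 ± 0.08 (adjusted p = 2.35e-10). Its highest PAX5-WT array lay below its lowest MIR array. Kcnmb4, a subunit of calcium-activated potassium channels, fell by 0.89 ± 0.16, Usp2, a deubiquitinase, fell by 0.83 ± 0.09, and Ifi204, an interferon-inducible DNA sensor, fell by 0.82 ± 0.16. In all 30 genes with the largest rise or fall the arrays of the groups did not overlap.

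Tested one by one, 1740 of 45141 probe sets were called (3.85%), and probe sets of the same gene mostly moved the same way. Of the called genes 569 had another probe set, and of these 1013 other probe sets 818 (80.8%) differed in the same direction, 229 were called in it and 2 were called in the opposite one. Over all genes with another probe set the share in the same direction was 58.9%. Among the 61 genes called with at least a 1.5-fold change, 97 of 105 other probe sets (92.4%) had the same direction, with 62 called, 0 called in the opposite one and 43 not called. All 3 probe sets of Cd36 rose, by 6.32 ± 0.27, 5.27 ± 0.24 and 2.04 ± 0.21, as did all 4 of Fcgr2b and all 4 of Ets1. Slamf6 rose in 2 of 3 probe sets, by 2.67 ± 0.35 and 1.15 ± 0.17, and the third was at -0.05 ± 0.06. Among the 16 leading genes with more than 1 probe set, Mycn was the only one with no other probe set called. Its probe set used here fell, but the other two lay at 3.97 and 3.50 in PAX5-WT arrays, against 3.94 and 3.54 in MIR arrays, with differences of 0.03 ± 0.07 and -0.03 ± 0.07. The fall of Mycn therefore rests on 1 probe set.

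**Figure D3:**
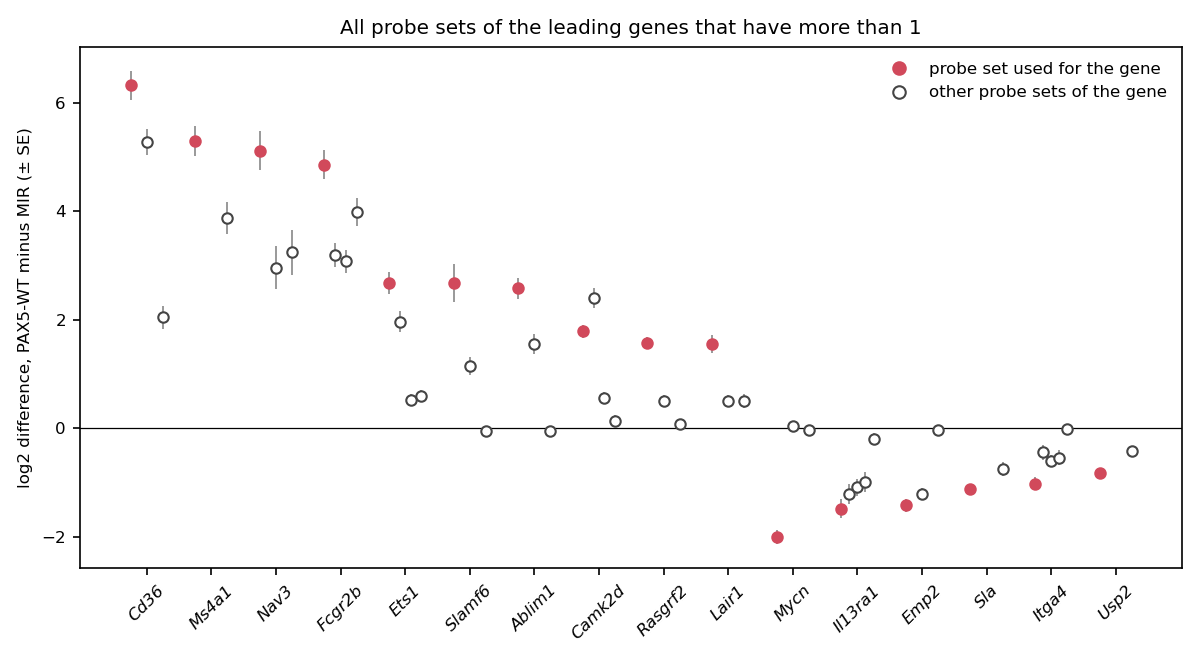
Difference between PAX5-WT and MIR (log2, ± SE, vertical axis) for every probe set of the 16 leading genes with more than 1, with the probe set used for the gene filled. The probe sets of Cd36, Nav3 and Fcgr2b all lie above 0, and 2 of the 3 Mycn probe sets lie at 0.

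The start sites of these genes were searched for letters known from PAX5 sites. PAX5 binds long and variable sequences, whose best conserved stretch reads GCGTGAC. RefSeq promoter windows (GRCm38.p6, 250 bases before to 50 after the start) were at hand for 13605 of the genes tested, and 440 of them (3.23%) held GCGTGAC on either strand. Of 496 genes that rose and had a window, 22 held it (4.44%), and of 394 that fell, 13 (3.3%). Among genes changed at least 1.5-fold, 2 of 86 risers (2.33%) and 0 of 33 fallers held it. These are descriptions with no test. The windows of the surface receptors Cd36 and Fcgr2b are shown because they rose most among the genes matched to a window, and neither holds the letters. Those of Ccng2, an atypical cyclin, and S1pr2, a sphingosine-1-phosphate receptor that confines B cells to germinal centres, are shown because theirs are the 2 windows with the letters among genes changed at least 1.5-fold. Capitals mark the match, which in both reads as the reverse complement. They lie at chr5:17835847-17836146, minus strand, at chr1:170976022-170976321, minus strand, at chr5:93267323-93267622, plus strand, and at chr9:20976744-20977043, minus strand, and are written 5′ to 3′ on the gene's strand.
Cd36: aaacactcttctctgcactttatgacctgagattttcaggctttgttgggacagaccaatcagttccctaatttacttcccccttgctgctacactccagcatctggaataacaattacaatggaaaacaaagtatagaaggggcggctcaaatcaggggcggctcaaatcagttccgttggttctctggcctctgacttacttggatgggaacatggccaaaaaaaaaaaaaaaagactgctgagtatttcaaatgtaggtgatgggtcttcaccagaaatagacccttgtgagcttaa
Fcgr2b: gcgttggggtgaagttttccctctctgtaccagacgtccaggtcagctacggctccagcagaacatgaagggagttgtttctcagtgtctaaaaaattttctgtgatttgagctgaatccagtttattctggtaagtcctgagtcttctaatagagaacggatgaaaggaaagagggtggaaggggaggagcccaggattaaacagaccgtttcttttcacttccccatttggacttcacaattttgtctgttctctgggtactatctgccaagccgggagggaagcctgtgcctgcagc
Ccng2: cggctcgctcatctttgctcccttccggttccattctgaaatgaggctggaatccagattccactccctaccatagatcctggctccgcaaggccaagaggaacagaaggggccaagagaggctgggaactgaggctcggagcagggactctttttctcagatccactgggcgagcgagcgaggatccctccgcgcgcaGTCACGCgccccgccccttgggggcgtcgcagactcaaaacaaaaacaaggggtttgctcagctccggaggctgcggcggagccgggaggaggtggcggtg
S1pr2: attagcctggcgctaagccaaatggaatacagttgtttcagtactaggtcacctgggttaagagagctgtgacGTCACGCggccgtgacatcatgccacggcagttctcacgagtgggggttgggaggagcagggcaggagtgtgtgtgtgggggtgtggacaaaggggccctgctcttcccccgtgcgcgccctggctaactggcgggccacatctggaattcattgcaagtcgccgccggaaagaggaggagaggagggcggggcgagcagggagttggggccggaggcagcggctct
Ccng2, named after its value was seen, was at 9.03 ± 0.17 in PAX5-WT and 8.40 ± 0.10 in MIR (SD) and rose by 0.63 ± 0.14 (adjusted p = 0.00261). S1pr2 lay at 7.17, 7.46 and 7.67 in PAX5-WT arrays, against 6.69, 6.78 and 7.13 in MIR arrays and rose by 0.62 ± 0.12 (adjusted p = 0.000777), with no overlap between the groups. Other start sites, introns and distant regions were not searched.

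The 2 isolation batches, which hold separate transductions, were compared gene by gene. Isolation batch 1 alone called 810 genes (4.74% of those tested), and 768 of them (94.8%) differed in the same direction in isolation batch 2, against 61.5% of all genes. Their median size was 0.37 where they were called and 0.26, counted in that direction, in the other batch. Isolation batch 2 alone called 229 genes (1.34%), and 224 (97.8%) had the same direction in isolation batch 1. The median size was 0.59 in isolation batch 2 and 0.60 in isolation batch 1. Between plates the picture was alike, with 405 of the 427 genes called on plate 1 (94.8%) and 222 of the 225 called on plate 2 (98.7%) moving the same way on the other plate, against 60.8% of all genes. Plate 1 alone called 2.5% of the genes and plate 2 alone 1.32%. None of the genes called in both isolation batches, or in both plates, went in opposite directions. All 145 genes changed at least 1.5-fold had the same direction in both isolation batches, with 90 larger in isolation batch 1 and 55 larger in isolation batch 2; this count describes genes chosen on both batches together.

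The size of the change itself differed between the isolation batches in 5 genes (0.0292% of those tested; unadjusted p under 0.05 for 772). Slamf6, a receptor by which lymphocytes recognise one another, was at 6.25 to 6.96 in PAX5-WT arrays of isolation batch 1 and 9.17 to 9.65 in those of isolation batch 2. The MIR arrays lay at 4.97 to 5.23 in isolation batch 1 and 5.02 to 5.37 in isolation batch 2. The ranges of the PAX5-WT arrays were apart between the batches and those of the MIR arrays were not (adjusted p = 8.19e-05). Lair1, an inhibitory receptor for collagen, differed by 1.01 ± 0.16 in isolation batch 1 and 2.29 ± 0.18 in isolation batch 2 (adjusted p of the batch term = 0.037). Its PAX5-WT arrays of isolation batch 2, at 6.70 to 6.82, lay above all others. Gng2, a G protein subunit, differed by 0.13 ± 0.21 in isolation batch 1 and 1.81 ± 0.25 in isolation batch 2 (batch term 0.0434) and did not pass over both (adjusted p = 0.104). It lay at 6.19 to 6.40 in the PAX5-WT arrays of isolation batch 2 and near its MIR level in those of isolation batch 1. Isg20, an interferon-induced exonuclease, differed by 0.15 ± 0.07 in isolation batch 1 and -0.49 ± 0.08 in isolation batch 2 (batch term 0.00826), so its directions were opposite, and over both batches it did not pass (adjusted p = 0.449). Ccdc71l, a gene of little known function, differed by -0.40 ± 0.05 in isolation batch 1 and -0.02 ± 0.05 in isolation batch 2 (batch term 0.037). With any 1 of the 14 arrays left out 1 to 3 genes passed this test, with 1 left when MIR replicate 7 or PAX5-WT replicate 7 was out, and with the 14 arrays alone 2 passed. P2ry10 also differed in size between the batches, by 0.99 ± 0.33 in isolation batch 1 and 3.17 ± 0.38 in isolation batch 2, without passing the test of that difference (adjusted p = 0.242). The test of plates gave 0 genes by limma (unadjusted p under 0.05 for 983, smallest adjusted p = 0.269).

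**Figure D4:**
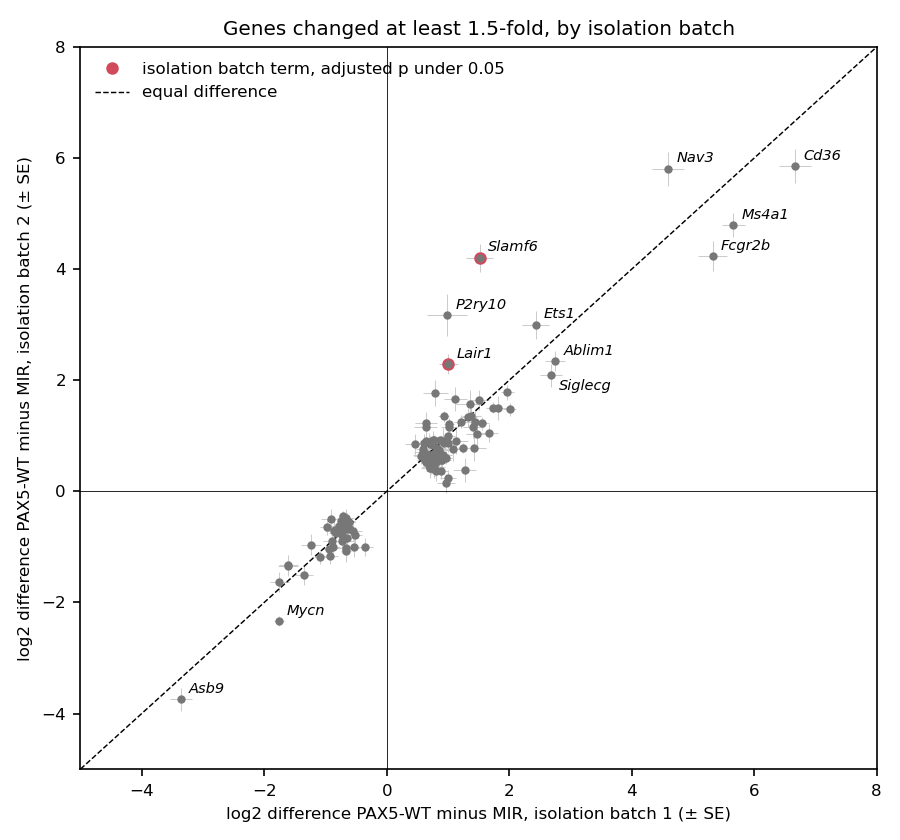
Difference between PAX5-WT and MIR in isolation batch 2 (log2, ± SE, vertical axis) against that in isolation batch 1 (horizontal axis) for the 145 genes changed at least 1.5-fold, with the dashed line at equal differences. Slamf6 and Lair1, in red, lie above the line and passed the test of a batch difference; all points lie in the upper right or lower left.

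Targets known from B cells changed in part. Over the 27 lists of genes that follow, the share called was 0 to 36.8%, beside 6.43% of all genes, and the median difference was -0.14 to 0.16, beside 0.01. Lists and members were chosen with earlier results of these data known. A share above that of all genes can therefore come from the choice of members, and the shares are descriptions only. Among 27 measured genes listed as activated by PAX5 in the B lineage 7 rose, 1 fell and 19 did not pass, with a median difference of 0.06. The risers named by size were Slamf6, Siglecg, Spib and Id3. Id3, an inhibitor of E proteins, lay at 6.99, 7.91 and 8.26 in PAX5-WT arrays, against 6.53, 7.22 and 7.53 in MIR arrays, overlapping, with a difference of 0.59 ± 0.18 (adjusted p = 0.0455). Id3 did not pass without PAX5-WT replicate 1, 2, 3, 4 or 7 or MIR replicate 1, 2, 4, 5 or 6 (0.52 to 0.61, adjusted p of 0.0586 to 0.118). The others, named after their values were seen, were Snx2, a sorting nexin, by 0.46 ± 0.05, Cd180, a toll-like receptor relative, by 0.35 ± 0.09, and Mef2c, a transcription factor of B cell proliferation, by 0.24 ± 0.06. The protein kinase D gene Prkd2 fell by 0.55 ± 0.09. Among 23 measured genes listed as held down by PAX5 there, 1 rose, 5 fell and 17 did not pass, with a median of -0.12. Jchain, the joining chain of polymeric antibodies, was written in both of these opposing lists, and its difference of -0.32 ± 0.15 did not pass (adjusted p = 0.248). Without it, an alternative added after the data were seen, the activated list held 26 genes, of which 7 rose, 1 fell and 18 did not pass (median 0.06), and the repressed list 22, of which 1 rose, 5 fell and 16 did not pass (median -0.09). The riser was Flt3, a receptor kinase of early progenitors, at 5.89, 6.68 and 7.13 in PAX5-WT arrays, against 4.55, 5.18 and 5.75 in MIR arrays. Flt3 was lower in isolation batch 2 than in isolation batch 1 in both groups, and its difference was 1.33 ± 0.14 in isolation batch 1 and 1.33 ± 0.17 in isolation batch 2. Among the fallers Ly6d, a surface marker of early lymphoid cells, lay at 7.86, 8.07 and 8.38 in PAX5-WT arrays, against 8.49, 8.61 and 8.88 in MIR arrays, a fall of 0.55 ± 0.11 with no overlap. Grap2, an adaptor of T cell receptor signalling, lay at 5.15, 5.43 and 5.55 in PAX5-WT arrays, against 5.74, 5.91 and 6.13 in MIR arrays and fell by 0.53 ± 0.09. Tnfrsf18, a TNF receptor of T cells, fell by 0.45 ± 0.06, and the groups overlapped.

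**Figure D5:**
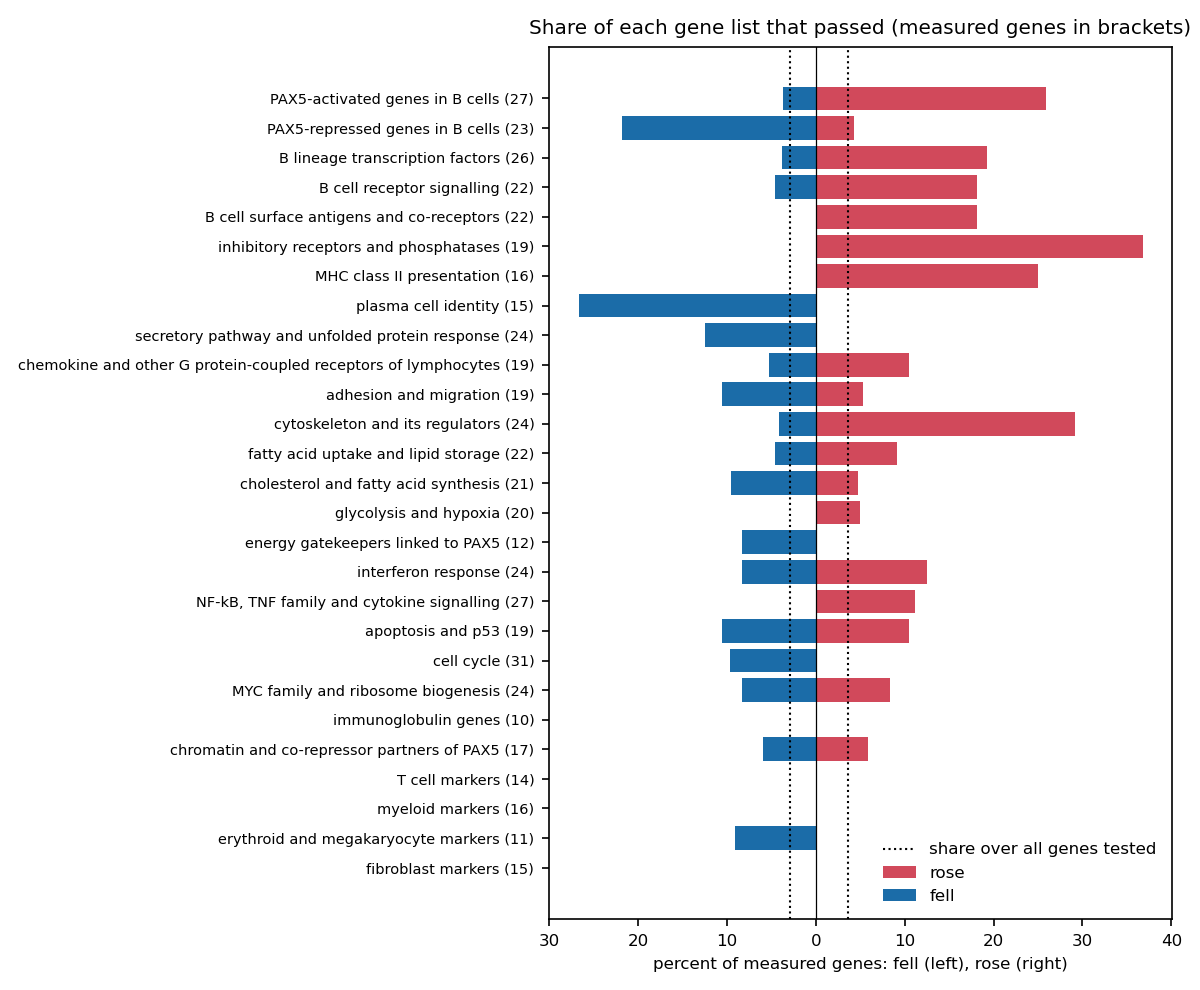
Percent of the measured genes of each list that fell (left, blue) or rose (right, red) in PAX5-WT against MIR arrays, with the number measured in brackets and dotted lines at the share over all genes tested, 2.84% and 3.59%. Inhibitory receptors and phosphatases and cytoskeletal genes have the longest bars to the right, and plasma cell identity and PAX5-repressed genes to the left.

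Other B cell lists held more risers than fallers. Of 26 B lineage transcription factors 5 rose, 1 fell and 20 did not pass. Ets1, Spib and Id3 rose as given above. Ikzf1, the zinc finger factor Ikaros, rose by 0.35 ± 0.04 and was named after its value was seen. The 22 measured genes of signalling from the B cell receptor included 4 that rose, 1 that fell and 17 that did not pass, with a median of 0.10. Btk, the kinase downstream of the receptor, lay at 7.87, 7.97 and 8.23 in PAX5-WT arrays, against 7.34, 7.57 and 7.82 in MIR arrays and rose by 0.42 ± 0.06 (adjusted p = 3.48e-06). Its groups were close without overlapping. Vav1 and Vav2, exchange factors that act downstream of antigen receptors, were higher by 0.26 ± 0.08 (adjusted p = 0.0333) and 0.42 ± 0.13 (adjusted p = 0.0424). Vav1 did not pass without PAX5-WT replicate 1, 2 or 3 or MIR replicate 2, 4, 5 or 6 (0.23 to 0.25, adjusted p of 0.0586 to 0.0941). Vav2 did not pass without PAX5-WT replicate 1, 2, 3, 4 or 7 or MIR replicate 3, 4, 5, 6 or 7 (0.38 to 0.43, adjusted p of 0.0539 to 0.103). The tetraspanin gene Cd81 lay at 10.45, 10.60 and 10.71 in PAX5-WT arrays, against 10.72, 10.78 and 10.89 in MIR arrays and fell by 0.19 ± 0.04. Of 22 B cell surface antigens and co-receptors 4 rose, 0 fell and 18 did not pass. Beside Ms4a1 and Cd180 they were Cd37, a tetraspanin of B cells, by 0.39 ± 0.09, and Cd80, a ligand that costimulates T cells, by 0.38 ± 0.10. A second probe set of Cd37 rose by 0.82 ± 0.09 (limma p adjusted over all probe sets = 7.31e-08). With the mean of its probe sets Cd80 did not pass (adjusted p = 0.123), nor did Vav1 (adjusted p = 0.0823).

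Inhibitory receptors and phosphatases held the largest share of called genes among the lists, 7 of 19 (36.8%), with 0 that fell and a median of 0.16. As members were chosen with earlier results known, this rank is no test of the list. Fcgr2b, Siglecg and Lair1 are described above. Ptpn22, a phosphatase that switches off SRC family kinases after antigen receptor engagement, lay at 9.53, 9.75 and 9.998 in PAX5-WT arrays, against 8.50, 8.70 and 8.82 in MIR arrays. Its lowest PAX5-WT array stood above its highest MIR array, with a rise of 1.10 ± 0.07 (adjusted p = 7.44e-15). The other 3 were named after their values were seen. Fcrla, an Fc receptor relative inside B cells, rose by 1.03 ± 0.16, Cd300a, an inhibitory receptor for membrane lipids, by 0.86 ± 0.17, and Ptpn6, the phosphatase SHP-1 that such receptors recruit, by 0.27 ± 0.07. In the 16 genes of antigen presentation by MHC class II 4 passed upward, 0 fell and 12 did not pass. Of the 4, 3 encode chains of H2-DM, which loads peptides onto class II molecules. H2-DMa lay at 5.04, 5.82 and 6.40 in PAX5-WT arrays, against 3.96, 4.41 and 4.97 in MIR arrays, and it rose by 1.36 ± 0.16 (adjusted p = 7.15e-08) with no overlap. H2-DMb1 and H2-DMb2, which are close copies and may share probes, were higher by 0.33 ± 0.09 (adjusted p = 0.017) and 0.43 ± 0.13 (adjusted p = 0.035). H2-DMb1 did not pass without PAX5-WT replicate 1 (0.25, adjusted p = 0.0696). H2-DMb2 did not pass without PAX5-WT replicate 1, 2 or 3 or MIR replicate 2 or 6 (0.34 to 0.41, adjusted p of 0.0703 to 0.123). A second probe set of H2-DMb2 rose by 0.58 ± 0.10 (limma p adjusted over all probe sets = 0.000289). Cd74, the invariant chain, lay at 6.77, 7.10 and 7.17 in PAX5-WT arrays, against 6.32, 6.42 and 6.68 in MIR arrays and rose by 0.59 ± 0.12. The class II chain gene H2-Aa stood at 4.96 ± 0.32 in PAX5-WT and 4.19 ± 0.17 in MIR (SD), with a difference of 0.77 ± 0.30 that did not pass (adjusted p = 0.136).

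Plasma cell genes that changed all fell. Of 15 measured plasma cell identity genes 0 rose, 4 fell and 11 did not pass, with a median of -0.14, and 2 of the 15 differences were positive. Ly6c1 is given above. Ell2, an elongation factor that favours the secreted form of antibody mRNA, lay at 10.87, 11.09 and 11.38 in PAX5-WT arrays, against 11.32, 11.44 and 11.61 in MIR arrays and fell by 0.33 ± 0.06 (adjusted p = 0.000171). Its highest PAX5-WT array lay within the MIR range. Eaf2, a partner of ELL proteins, fell by 0.22 ± 0.05. Xbp1 lay at 13.07, 13.17 and 13.26 in PAX5-WT arrays, against 13.20, 13.31 and 13.38 in MIR arrays, a fall of 0.14 ± 0.04 (adjusted p = 0.0113, and 0.0892 with the replicate number as a block). Other probe sets of Xbp1 differed by -0.36 ± 0.06, -0.21 ± 0.04 and -0.15 ± 0.05. Their limma p adjusted over all probe sets was 8.61e-05, 0.0029 and 0.141. Prdm1, the repressor that starts the plasma cell programme, stood at 8.88 ± 0.19 in PAX5-WT and 9.02 ± 0.13 in MIR (SD), and its difference of -0.14 ± 0.05 did not pass (adjusted p = 0.108). Of 24 genes of the secretory pathway and the unfolded protein response 0 rose, 3 fell and 21 did not pass, with a median of 0.01. Of these 24 differences 14 were positive. The share called, 12.5%, was near the 12.6% of the brightest class of genes, in whose range the mean level of this list lies. Pdia4, a chaperone that forms disulphide bonds, lay at 10.41, 10.66 and 10.76 in PAX5-WT arrays, against 10.86, 11.03 and 11.16 in MIR arrays and fell by 0.41 ± 0.06 without overlap. Edem1, which marks misfolded glycoproteins for disposal, lay at 11.92, 11.97 and 12.10 in PAX5-WT arrays, against 12.17, 12.23 and 12.34 in MIR arrays and fell by 0.26 ± 0.04. Dnajb9, a co-chaperone of the endoplasmic reticulum, was at -0.16 ± 0.05 (adjusted p = 0.0382, and 0.0851 with the block). Dnajb9 did not pass without PAX5-WT replicate 2, 3, 6 or 7 or MIR replicate 2, 5, 6 or 7 (-0.16 to -0.14, adjusted p of 0.0506 to 0.101). None of 10 immunoglobulin genes passed with limma, and 1 had an unadjusted p under 0.05.

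Of 24 genes of the cytoskeleton and its regulators 7 rose, 1 fell and 16 did not pass (33.3% called), with a median of 0.07. After Nav3 and Ablim1 came Fhod3, a formin that assembles actin, at 4.83, 5.26 and 6.10 in PAX5-WT arrays, against 3.80, 4.14 and 4.56 in MIR arrays, with a rise of 1.15 ± 0.17 and no overlap. Rhoh, a GTPase of blood cells, lay at 6.13, 6.30 and 6.50 in PAX5-WT arrays, against 5.36, 5.83 and 6.12 in MIR arrays, narrowly apart, with a rise of 0.52 ± 0.13 (adjusted p = 0.0104). Others, named after their values were seen, were Coro1a, an actin regulator of leukocytes, by 0.47 ± 0.12, Dock8, an exchange factor for Cdc42, by 0.34 ± 0.08, and Arhgef6, an exchange factor for Rac, by 0.19 ± 0.05. The tubulin gene Tubb6 fell by 0.18 ± 0.06. Of 19 adhesion and migration genes 1 rose and 2 fell. Beside Itga4 it was Cd44, a receptor for hyaluronan, that fell, by 0.40 ± 0.07. Cdh17, a cadherin found on B cells, was at 0.42 ± 0.12 (adjusted p = 0.0338, and 0.0888 with the block). It was 0.70 ± 0.11 in isolation batch 1 and 0.04 ± 0.13 in isolation batch 2. Cdh17 did not pass without PAX5-WT replicate 1, 2, 3 or 4 or MIR replicate 1, 4 or 6 (0.36 to 0.41, adjusted p of 0.0618 to 0.105). Of 19 chemokine and other G protein-coupled receptors 2 rose, P2ry10 and S1pr2, and Lpar6, a receptor for lysophosphatidic acid, fell by 0.29 ± 0.06.

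In the metabolic lists the called genes beside Cd36 changed less than 1.5-fold. The share called was below the 6.43% of all genes for glycolysis and hypoxia and above it in the other metabolic lists. The mean levels of those other lists lie in the second brightest class of genes, in which 10.7% were called. Energy gatekeepers were below that share, and the fatty acid and cholesterol lists were above it. The mean level for glycolysis and hypoxia lies in the brightest class, with 12.6% called. List shares were not tested against class shares, so they show no excess of called genes. Of 22 genes of fatty acid uptake and lipid storage 2 rose, 1 fell and 19 did not pass, with a median of 0.02. Slc27a4, a fatty acid transport protein, lay at 6.28, 6.51 and 6.69 in PAX5-WT arrays, against 6.67, 6.79 and 6.91 in MIR arrays and fell by 0.32 ± 0.08, with overlap. Cpt1a, which brings fatty acids into mitochondria, was at 0.28 ± 0.08 (adjusted p = 0.0263). Cpt1a did not pass without PAX5-WT replicate 1 or 3 or MIR replicate 6 or 7 (0.25 to 0.27, adjusted p of 0.053 to 0.0796). Of 21 genes of cholesterol and fatty acid synthesis 1 rose, 2 fell and 18 did not pass, with a median of -0.05. The sterol enzymes Cyp51 and Sc5d fell by 0.27 ± 0.04 and 0.26 ± 0.05, and neither passed with the mean over each gene's probe sets (adjusted p = 0.0788 and 0.313). Fasn, the fatty acid synthase, was at 0.12 ± 0.03 (adjusted p = 0.0276, and 0.174 with the block). Fasn did not pass without PAX5-WT replicate 1 or 6 or MIR replicate 1, 3, 4 or 7 (0.11 to 0.12, adjusted p of 0.0566 to 0.0718). Of 20 genes of glycolysis and hypoxia 1 rose, Pfkfb3, which makes the activator of phosphofructokinase. It lay at 6.61, 6.86 and 7.02 in PAX5-WT arrays, against 6.06, 6.32 and 6.58 in MIR arrays, a rise of 0.52 ± 0.09. Among 12 energy gatekeepers linked to PAX5 in leukaemia, Txnip, an inhibitor of glucose uptake, was at -0.38 ± 0.11 (adjusted p = 0.0291) and the other 11 did not pass. Txnip did not pass without PAX5-WT replicate 1, 3 or 7 or MIR replicate 1, 5, 6 or 7 (-0.38 to -0.35, adjusted p of 0.0522 to 0.077).

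Interferon and survival genes went both ways, and the called cytokine signalling genes rose. Of 24 interferon response genes 3 rose, 2 fell and 19 did not pass, with a median of 0.03. Irgm1, an immunity-related GTPase, lay at 7.59, 8.01 and 8.32 in PAX5-WT arrays, against 6.49, 6.62 and 7.54 in MIR arrays and rose by 1.05 ± 0.07 (adjusted p = 4.9e-14). Its relative Igtp lay at 8.45, 8.63 and 8.77 in PAX5-WT arrays, against 8.96, 9.05 and 9.14 in MIR arrays and fell by 0.44 ± 0.07 (adjusted p = 3.03e-05), so both GTPases separated the groups in opposite directions. Zbp1, a sensor of Z-form nucleic acids, lay at 8.79, 9.29 and 9.38 in PAX5-WT arrays, against 9.52, 9.86 and 10.02 in MIR arrays and fell by 0.63 ± 0.07. Dhx58, a regulator of RNA sensing, was 0.69 ± 0.14 in isolation batch 1 and -0.0041 ± 0.16 in isolation batch 2, with 0.39 ± 0.12 over both (adjusted p = 0.036, and 0.128 with the block). Dhx58 did not pass without PAX5-WT replicate 1, 2, 3 or 7 or MIR replicate 1, 2, 3 or 4 (0.29 to 0.40, adjusted p of 0.0512 to 0.132). With the mean of its probe sets Dhx58 was at 0.13 (adjusted p = 0.187). Of 27 genes of NF-kB, TNF family and cytokine signalling 3 rose, 0 fell and 24 did not pass. With Traf5 these were Tnfaip3, a brake on NF-kB, by 0.33 ± 0.09, which did not pass with the mean of its probe sets (adjusted p = 0.486), and the cytokine gene Il10, by 0.33 ± 0.06. The share called in this list was 11.1%, beside 10.7% in the second brightest class of genes, in whose range its mean level lies. Of 19 genes of apoptosis and p53 2 rose and 2 fell. Bcl2, the survival factor, lay at 6.91, 7.28 and 7.54 in PAX5-WT arrays, against 6.43, 6.73 and 6.87 in MIR arrays and rose by 0.58 ± 0.08 without overlap. Pmaip1, the death-promoting NOXA, fell by 0.54 ± 0.11, with overlap. Bcl2l1, which encodes BCL-XL, was at -0.25 ± 0.07 (adjusted p = 0.0166), and Bid, a death-promoting relative, rose by 0.21 ± 0.05. With the mean of a gene's probe sets neither passed, Bcl2l1 at -0.09 (adjusted p = 0.3) and Bid with an adjusted p of 0.518. Bcl2l1 did not pass without PAX5-WT replicate 3 or MIR replicate 4 (-0.22 to -0.21, adjusted p of 0.0524 to 0.0585).

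Growth genes other than Mycn changed by small amounts. Of 31 cell cycle genes 0 rose, 3 fell and 28 did not pass, with a median of -0.01. The share called was 9.68%, beside 12.6% in the brightest class of genes, in whose range the mean level of this list lies. Mki67, a marker of cycling cells, lay at 11.76, 11.96 and 12.16 in PAX5-WT arrays, against 12.13, 12.28 and 12.33 in MIR arrays and fell by 0.29 ± 0.06, with overlap. Ccnd3, a D-type cyclin, fell by 0.32 ± 0.07 but did not pass with the mean of its probe sets (adjusted p = 0.578), and Aurka, a mitotic kinase, fell by 0.20 ± 0.05. Of 24 genes of the MYC family and ribosome biogenesis 2 rose, 2 fell and 20 did not pass. Myc itself was at 11.63, 11.81 and 12.16 in PAX5-WT arrays, against 11.63, 11.69 and 11.96 in MIR arrays, a difference of 0.12 ± 0.04 (adjusted p = 0.0458, and 0.183 with the block) whose groups overlapped. Myc did not pass without PAX5-WT replicate 2, 3, 5, 6 or 7 or MIR replicate 1, 2, 3, 5, 6 or 7 (0.11 to 0.13, adjusted p of 0.0588 to 0.119). Odc1, the first enzyme of polyamine synthesis, was at 0.24 ± 0.07 (adjusted p = 0.0392), and Mlx, a partner of MYC-related factors, at -0.28 ± 0.08 (adjusted p = 0.0407, and 0.113 with the block). Odc1 did not pass without PAX5-WT replicate 1, 3, 4 or 6 or MIR replicate 1, 2, 4, 5 or 6 (0.20 to 0.24, adjusted p of 0.0558 to 0.115). Mlx did not pass without PAX5-WT replicate 1, 3, 4 or 6 or MIR replicate 1, 4, 6 or 7 (-0.27 to -0.24, adjusted p of 0.0718 to 0.11). Of 17 chromatin and co-repressor partners of PAX5 1 rose and 1 fell. The share called was 11.8%, beside 12.6% in the brightest class of genes, in whose range the mean level of this list lies. Tle1, a Groucho co-repressor, rose by 0.34 ± 0.08, and Tle6, a shortened relative of that family, lay at 8.47, 8.59 and 8.69 in PAX5-WT arrays, against 8.88, 8.93 and 9.12 in MIR arrays and fell by 0.40 ± 0.07.

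Markers of other cell types gave 1 call. None of 14 T cell, 16 myeloid and 15 fibroblast markers passed with limma, with an unadjusted p under 0.05 for 1, 1 and 2. The mean level over the T cell markers was 4.77 to 4.90 in PAX5-WT arrays and 4.75 to 4.85 in MIR arrays, over the myeloid markers 4.19 to 4.28 in PAX5-WT and 4.17 to 4.30 in MIR arrays, and over the fibroblast markers 3.87 to 4.02 in PAX5-WT and 3.89 to 3.94 in MIR arrays. Of 11 erythroid and megakaryocyte markers Gp9, a platelet glycoprotein, fell by 0.80 ± 0.22 (adjusted p = 0.0196). Gp9 did not pass without PAX5-WT replicate 3 or MIR replicate 6 or 7 (-0.74 to -0.71, adjusted p of 0.0507 to 0.0596). That list's mean was 3.98 to 4.14 in PAX5-WT arrays and 3.96 to 4.17 in MIR arrays. The myeloid, fibroblast, and erythroid and megakaryocyte means lie in the second dimmest class of genes, in which 1.66% were called. The T cell means lie around its upper edge, next to a class with 10.7% called. Few or no calls in lists this short therefore say little about these markers.

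Some called genes were among those with the highest signals on the arrays. Hspa8, a chaperone of the HSP70 family, lay at 13.49, 13.55 and 13.71 in PAX5-WT arrays, against 13.67, 13.75 and 13.80 in MIR arrays. Its ranges overlapped by little, and its difference was -0.17 ± 0.05 (adjusted p = 0.0248, and 0.0509 with the block). Hspa8 did not pass without PAX5-WT replicate 1 or 6 or MIR replicate 4 (-0.16 to -0.15, adjusted p of 0.0549 to 0.072). With the mean of its probe sets the adjusted p was 0.128. Ftl1, the ferritin light chain, fell by 0.18 ± 0.04. Spcs1, a subunit of signal peptidase, lay at 12.41, 12.47 and 12.52 in PAX5-WT arrays, against 12.57, 12.60 and 12.69 in MIR arrays, narrowly apart, with a fall of 0.15 ± 0.04 (adjusted p = 0.0125, and 0.0786 with the block).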

How the data were processed

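Total RNA of J558LuM cells was hybridised to Affymetrix arrays. The deposited table holds log2 values, made by the authors with RMA, as the submitters' processing notes name it without a version. GEO's platform annotation ties 28898 of the 45141 probe sets to 1 gene, 551 to several and 15692 to none, and 28689 were matched to RefSeq by gene ID. Each of 17097 genes was represented by its brightest probe set on average over the 40 arrays. Medians of the 14 arrays lay between 4.22 and 4.27, 0 columns were identical, and the median SE was 0.08; the number of arrays limits the precision.

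R 4.3.3 with limma 3.58.1 fitted 6 groups, plate and RNA isolation batch over all 40 arrays, and p-values were adjusted over all genes (or all probe sets where each was tested) by the method of Benjamini and Hochberg. Terms for isolation batch by group and for plate by group tested those differences. Arrays with the same number in PAX5-WT and MIR share plate and isolation batch by the labels, and their deviations from the group means correlated at 0.16 to 0.28, so a replicate block in the 14 arrays was an alternative (-0.41 to -0.07 once plate and isolation batch were removed).

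Genes named are the 15 largest rises and 15 largest falls, up to 4 called genes per list, the 5 brightest called genes, those with a called isolation batch term, Pax5 and Cd79a, and 6 unnamed probe sets; identity markers and any other gene named were chosen after their values were seen. The 27 lists (559 genes, 497 measured, 5 by a synonym, 35 in more than 1 list) come from textbook knowledge, and members, lists and rules were chosen with earlier results of these data known. The procedure was tested on simulated data. As alternatives each array was left out, batch terms were dropped, single isolation batches, single plates or the 14 arrays alone were fitted, isolation batch was a random block, and probe sets of a gene were averaged. Further ones were median centring, a second quantile normalization, array weights, limma's trend with robust variances, genes above the median level only, and a 1.5-fold minimum.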

Additional observations from a re-analysis of the deposited data

Results flagged for a closer look

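Among 186 sets of 7 arrays (each named gene in PAX5-WT and in MIR), 4 held 1 array far from the other 6, a distance that chance gives in about 5% of such sets. Cd36 was at 5.89 in MIR replicate 7, against 3.56 to 3.85 in the other MIR arrays. In that array a second probe set of Cd36 was high too, at 5.58, and the third was at 3.68. P2ry10 was at 3.51 in MIR replicate 7, against 3.04 to 3.24 in the other MIR arrays. Fcgr2b was also highest in this array among the MIR arrays, at 5.58. Ms4a1, at 4.07, was just below the highest of the others, 4.08, and its second probe set was highest in this array, at 3.41. On the first principal component of all genes MIR replicate 7 was the MIR array nearest the PAX5-WT arrays. It stood at -7.56, against -13.83 to -10.5 in the other MIR arrays, and the cause was not tested. H2-DMb1 was at 4.60 in PAX5-WT replicate 1, against 3.92 to 4.18 in the other PAX5-WT arrays, and without that array its difference did not pass. Eaf2 was at 10.95 in PAX5-WT replicate 7, against 10.72 to 10.82 in the other PAX5-WT arrays.

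The difference between PAX5-WT and MIR itself differed between the isolation batches in 5 genes by limma. Isolation batch 2 minus isolation batch 1, it was 2.69 for Slamf6, 1.68 for Gng2, 1.29 for Lair1, 0.38 for Ccdc71l and -0.63 for Isg20. Transductions 34 to 43 make up isolation batch 1 of these groups and transductions 58 to 63 isolation batch 2, so isolation and transduction series cannot be told apart.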

How the results depend on the processing

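The count of 1099 genes (613 rose, 486 fell) was 696 without batch terms (412 rose, 284 fell), all of them also called with the terms. With fewer arrays by construction it was 229 in isolation batch 2, 427 on plate 1, 225 on plate 2 and 810 in isolation batch 1; with a 1.5-fold minimum it was 145. The other settings gave 907 (random block) to 1453 (array weights), with 1337 of 8548 genes above the median level. Median centring gave 537 rises and 530 falls. Left out in turn, single arrays gave 880 to 1043 genes. Probe sets called were 1740, and 1118 without batch terms; the cause of the gain with batch terms was not tested. The isolation batch term gave 5 genes, 2 with the 14 arrays alone and 1 to 3 with an array left out (1 without MIR replicate 7 or PAX5-WT replicate 7).

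With the replicate number as a block 922 genes were called, 759 of them also called without it, and 79 of 89 called named genes kept their call. The 10 that did not were Xbp1, Dnajb9, Cdh17, Fasn, Dhx58, Mlx, Myc, Hspa8 and Spcs1, given in the report, and Ccdc71l (adjusted p = 0.0998); the block changed no other call among named genes. Of the 89, 71 kept it with every array left out in turn, and 34 in all alternatives run. Calls of named genes lost were 49 in isolation batch 2, 44 on plate 2, 36 on plate 1 and 15 in isolation batch 1, each with fewer arrays. They were 14 without batch terms (Klra17, Id3, Vav2, Xbp1, Dnajb9, Cdh17, Cyp51, Fasn, Txnip, Ccnd3, Aurka, Mlx, Odc1 and Myc), 10 with the mean of probe sets (Vav1, Cd80, Cyp51, Sc5d, Dhx58, Tnfaip3, Bcl2l1, Bid, Ccnd3 and Hspa8), 7 with the random block (Id3, Dnajb9, Fasn, Txnip, Mlx, Odc1 and Myc), 5 with the 14 arrays alone (Cd180, H2-DMb2, Fasn, Dhx58 and Myc), 4 with median centring (Id3, Vav1, Fasn and Myc), 4 with quantile normalization (Id3, Vav1, Vav2 and Dnajb9) and 1 with trend and robust settings (Id3). Gng2 passed with the 14 arrays alone (adjusted p = 0.0394). Dhx58 changed sign in isolation batch 2 alone, at -0.0041 (adjusted p = 0.998). Where both groups are near the background, differences are compressed. Groups also rest on 1 cell line.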

Other observations

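Probe sets that GEO's annotation ties to no gene held further differences. Of 15692 such probe sets 225 rose and 172 fell (2.53%, against 3.85% of all 45141 probe sets), and 55 changed at least 1.5-fold. The largest rises were those of 1439897_PM_at, from 6.36 to 7.38 in PAX5-WT arrays, against 3.07 to 3.61 in MIR arrays (3.53 ± 0.20), 1441317_PM_x_at by 3.22 ± 0.16 and 1428909_PM_at by 2.59 ± 0.31. The largest falls were those of 1452348_PM_s_at by 0.90 ± 0.15, 1422879_PM_at by 0.82 ± 0.08 and 1440945_PM_at by 0.81 ± 0.14. Of 104 control probe sets of the array maker 0 rose and 2 fell.

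Neighbouring genes were counted in pairs, with no test. In the gene order of RefSeq (GRCm38.p6), 17033 pairs of neighbours were both tested. In 49 both rose (0.288% of the pairs), in 23 both fell (0.135%) and in 26 one rose and the other fell (0.153%). Of single genes 3.59% rose and 2.84% fell, which are not shares of pairs. The shares that unrelated pairs would give were not computed, so these counts show no excess or lack of shared changes. In 6 pairs, named after their values were seen, both changed at least 1.5-fold in the same direction. On chromosome 1 Fcrla (1.03 ± 0.16) lies beside Fcgr2b (4.85 ± 0.27). On chromosome 5 the crystallin genes Cryba4 (0.81 ± 0.08) and Crybb1 (0.82 ± 0.11) rose, and on chromosome 2 Rbm43 (0.68 ± 0.10) and Nmi (0.70 ± 0.06). On chromosome 3 Ank2, a spectrin-binding anchor protein, rose by 0.78 ± 0.12 beside Camk2d (1.78 ± 0.12). On chromosome 19 the long noncoding RNA genes Malat1 (-0.59 ± 0.09) and Neat1 (-0.63 ± 0.18) both fell. On the X chromosome P2ry10b (0.63 ± 0.13) lies beside its relative P2ry10 (1.92 ± 0.51), and whether their probe sets tell them apart was not tested.

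Further genes that rose at least 1.5-fold and stand in no list, chosen after their values were seen, were Plek, a substrate of protein kinase C in blood cells, by 1.45 ± 0.23, Foxa1, a transcription factor of epithelial tissue, by 1.40 ± 0.18, Slc44a2, a choline transporter, by 1.37 ± 0.12, Lpxn, an adaptor of adhesion sites, by 1.28 ± 0.13, Nrros, which holds latent TGF-beta on leukocytes, by 1.30 ± 0.14, Cdc25b, a phosphatase of cyclin-dependent kinases, by 1.11 ± 0.09, and Zbtb32, a repressor of memory B cell responses, by 0.89 ± 0.15. Foxa1 stood at 5.83 ± 0.38 in PAX5-WT and 4.42 ± 0.17 in MIR (SD). Further falls were those of Map3k8, a kinase of TNF and toll-like receptor signalling, at -0.70 ± 0.09, Fut8, which adds core fucose to glycoproteins including antibodies, at -0.67 ± 0.10, and Cited2, a binding partner of CBP and p300, at -0.64 ± 0.07.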
